A study of Mus musculus with 8 samples.

Results

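The 20960 intervals described here are stretches of the mouse genome that the deposited peak list of vehicle-treated CD8+ T cells holds as marked by H3K27ac and in which the list of EnPGC-1-treated cells holds no marked base. They were chosen by that overlap alone: rows that repeat an interval for several summits were combined, and a DMSO interval was kept when no EnPGC-1 interval on chromosomes 1 to 19 shared 1 bp or more with it. They made up 26.3% of the 79842 DMSO intervals on these chromosomes (95% exact Clopper-Pearson interval 25.9 to 26.6). The other 58882 DMSO intervals overlapped the EnPGC-1 list and are called shared. The EnPGC-1 list held 247434 intervals, of which 189996 touched no DMSO interval and are called EnPGC-1-only.

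CD8+ T cells had been purified from lymph node and spleen of C57BL/6 mice, stimulated through the T cell receptor with antibodies to CD3 and CD28, and treated for 48 h with EnPGC-1, a compound that the labels class among PIPs, or with the vehicle DMSO. Chromatin was precipitated with an antibody to H3K27ac in 2 EnPGC-1 samples and 2 DMSO samples. IgG precipitates (2 DMSO samples) and input DNA (1 EnPGC-1 sample and 1 DMSO sample) completed the 8 samples. All groups shared the strain, the stimulation and the duration. Each treatment has 1 list of intervals, without values per sample, so there is no spread between replicates, no test between treatments is possible, and every interval given with a share covers counting error only.

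H3K27ac is acetylation of a lysine in the tail of histone H3. The acetyltransferases CBP and p300 place it, histone deacetylases remove it, and bromodomain proteins read it. It marks active promoters, where it flanks the transcription start, and active enhancers, which lie in introns or between genes. In activated CD8+ T cells such elements control the genes of receptor signalling, cytotoxicity and metabolism. PGC-1, to which the compound's name and the study's title on mitochondrial biogenesis refer, is a family of transcriptional coactivators for genes of oxidative metabolism.

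A set of 6 promoters shows what such an interval looks like at a gene of the lineage or of mitochondria. Each holds a DMSO-only interval and no EnPGC-1 interval within the window that runs from 250 bases before the transcription start to 50 bases after it. They belong to Cd44 (the hyaluronan receptor of activated and memory T cells), Cd3e (a signalling chain of the T cell receptor complex), Il12rb2 (a chain of the interleukin 12 receptor), Cycs (cytochrome c), Ndufa4 (a small respiratory chain subunit) and Mfn2 (mitofusin, which fuses mitochondrial outer membranes). They were picked from the promoters of the gene lists below after their values were seen. The 250 bases before each start, from RefSeq on assembly GRCm38.p6, are given 5′ to 3′ on the gene's strand, with CpG dinucleotides in capitals.
Cd44, chr2:102901666-102901915, minus strand: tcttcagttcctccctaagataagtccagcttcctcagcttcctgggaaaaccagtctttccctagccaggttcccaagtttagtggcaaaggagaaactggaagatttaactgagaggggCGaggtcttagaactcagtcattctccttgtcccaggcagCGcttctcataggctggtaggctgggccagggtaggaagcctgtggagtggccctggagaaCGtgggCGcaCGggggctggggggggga
Cd3e, chr9:45009612-45009861, minus strand: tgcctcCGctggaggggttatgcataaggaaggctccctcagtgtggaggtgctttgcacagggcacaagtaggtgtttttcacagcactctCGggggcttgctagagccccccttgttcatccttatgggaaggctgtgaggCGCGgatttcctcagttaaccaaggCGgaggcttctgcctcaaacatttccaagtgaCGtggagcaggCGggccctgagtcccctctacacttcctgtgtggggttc
Il12rb2, chr6:67376189-67376438, minus strand: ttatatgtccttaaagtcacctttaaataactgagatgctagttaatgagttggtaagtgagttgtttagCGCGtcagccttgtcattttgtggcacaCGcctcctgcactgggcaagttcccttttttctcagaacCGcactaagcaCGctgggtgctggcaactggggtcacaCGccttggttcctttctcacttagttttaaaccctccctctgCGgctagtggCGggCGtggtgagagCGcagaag
Cycs, chr6:50566570-50566819, minus strand: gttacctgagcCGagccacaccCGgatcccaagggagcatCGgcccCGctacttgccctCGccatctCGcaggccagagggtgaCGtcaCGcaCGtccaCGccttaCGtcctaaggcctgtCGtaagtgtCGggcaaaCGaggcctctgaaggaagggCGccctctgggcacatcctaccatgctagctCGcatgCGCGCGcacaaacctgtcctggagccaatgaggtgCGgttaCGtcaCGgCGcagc
Ndufa4, chr6:11907451-11907700, minus strand: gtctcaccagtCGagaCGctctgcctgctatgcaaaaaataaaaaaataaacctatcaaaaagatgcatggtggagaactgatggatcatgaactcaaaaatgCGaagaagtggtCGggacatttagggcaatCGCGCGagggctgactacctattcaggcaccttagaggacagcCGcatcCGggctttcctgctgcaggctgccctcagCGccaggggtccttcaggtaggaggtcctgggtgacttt
Mfn2, chr4:147904662-147904911, minus strand: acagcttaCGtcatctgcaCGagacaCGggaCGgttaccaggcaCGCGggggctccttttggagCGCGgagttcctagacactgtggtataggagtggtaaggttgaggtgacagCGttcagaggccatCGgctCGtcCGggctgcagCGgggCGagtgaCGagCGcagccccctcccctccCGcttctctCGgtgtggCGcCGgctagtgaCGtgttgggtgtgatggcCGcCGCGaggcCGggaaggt

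The 250 bases held 25 CpG in Mfn2, 23 in Cycs, 10 in Ndufa4, 10 in Il12rb2, 7 in Cd3e and 5 in Cd44. No GC box (GGGCGG) and no ETS core (CCGGAAG) lay on either strand of these 6 stretches, and the CCAAT box was found in Cycs alone (1 match). The DMSO-only interval covered all 250 bases in Cd3e and in Mfn2, 237 in Ndufa4, 114 in Cycs, 62 in Cd44 and 38 in Il12rb2, and ran on across the start in each. At Cd44 the interval was 836 bp wide and the nearest EnPGC-1 interval began 61 bp away, inside the gene. At Mfn2 an EnPGC-1 interval lay 662 bp away on the side of the gene and another lay 1278 bp away on the other side. At Cd3e the distance was 529 bp and at Cycs 4995 bp. The nearest EnPGC-1 interval was 38458 bp from the interval at Il12rb2 and 68125 bp from the interval at Ndufa4. The examples thus include both kinds of member described next, those beside an EnPGC-1 interval and those in stretches where the EnPGC-1 list holds nothing.

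The intervals were narrow. Their median width was 380 bp (interquartile range 326 to 482), against 457 bp for shared DMSO intervals and 463 bp for EnPGC-1-only intervals. The widest measured 1994 bp, beside 3554 bp in the shared set. A width of 1 kb or more was reached by 0.840% of the DMSO-only intervals (0.721 to 0.973) and 5.72% of the shared ones, and more than 1 summit was listed in 1.22% and 4.26% of them. Together the DMSO-only intervals covered 8.97 Mb and the shared DMSO intervals 31.5 Mb. Width is tied to the selection, because a wide interval has more bases with which to meet another one.

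Read across widths, the DMSO-only share of DMSO intervals went down in order. It was 40.5% among intervals under 300 bp, 31.5% at 350 to 399 bp, 21.5% at 500 to 599 bp, 10.1% at 800 to 999 bp and 0.750% (4 of 533) at 1500 bp or more. The score told the sets apart far less. The authors' score, read here as the −log10 of a q-value and used only within this list, had a median of 2.16 in DMSO-only and in shared intervals. Scores were coarse: 4 values, 1.36, 1.76, 2.16 and 2.58, held 60.4% of the DMSO-only intervals. Between scores of 1.5 and 10 the DMSO-only share stayed within 24.5% and 27.9%, and it was 29.0% below 1.5. At scores of 10 up to 15 it was 9.62% (5 of 52, 3.20 to 21.0), and none of the 50 intervals with a score of 15 or more was DMSO-only (0 to 7.11). The highest DMSO-only score was 12.03 and the highest shared score 178.7.

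**Figure D1:**
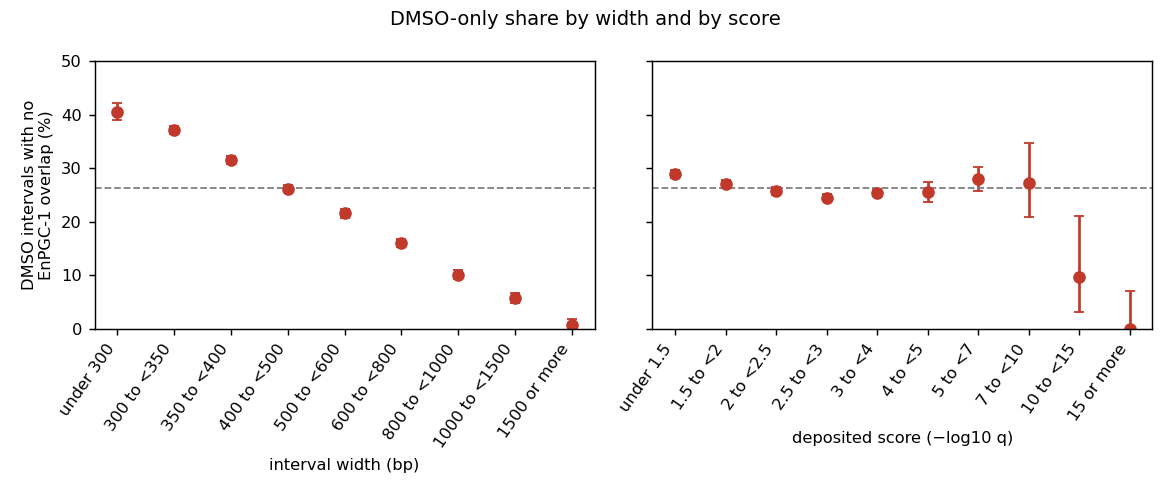
Percent of DMSO intervals with no EnPGC-1 overlap (vertical axis) by interval width in bp (left) and by the deposited score (right), with exact 95% intervals and the overall 26.3% as a dashed line. The share goes down with width, to 0.750% at 1500 bp or more, and is nearly flat over scores below 10.

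The highest-scoring member, 370 bp at chr1:84956887-84957256, lay 1150 bp from an EnPGC-1 interval and 21.6 kb from the nearest protein-coding gene, Slc16a14. The second, 315 bp with a score of 11.6 at chr1:88283420-88283734, lay 5.78 kb from Hjurp, a chaperone of the centromeric histone. The 10 highest-scoring members included intervals inside Tkt, the transketolase gene (score 9.11), and Prr5l, which lay 784 and 300 bp from an EnPGC-1 interval. The widest member, chr8:84698860-84700853, sat at an end of Trmt1, a tRNA methyltransferase gene, with EnPGC-1 intervals 266 and 257 bp from its edges. The third in width, 1785 bp at chr10:80140867-80142651, covered a start of Atp5d, a subunit of ATP synthase. Among the 10 widest, the distance to the nearest EnPGC-1 interval was at most 1248 bp.

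Most DMSO-only intervals lay close to an EnPGC-1 interval. The median distance was 1341 bp (exact 95% interval 1306 to 1376), the quartiles were 526 and 3989 bp, and the longest distance was 180492 bp. Within 1 kb lay 42.3% of them (41.7 to 43.0), within 5 kb 79.2%, and within 10 kb 88.7%. Of all bases outside EnPGC-1 intervals, 16.7% lay within 1 kb of such an interval, 44.99% within 5 kb and 61.5% within 10 kb. EnPGC-1-only intervals stood farther from the DMSO list, at a median of 5562.5 bp, with 14.1% within 1 kb, in a comparison where the DMSO list is shorter and offers fewer neighbours. An EnPGC-1 interval within 1 kb on both sides flanked 10.8% of the DMSO-only intervals. The nearest shared DMSO interval was 7961.5 bp away at the median. The distance depends on the lists: the median was 4294 bp with equal numbers of intervals, 2744.5 bp with each list at or above its own median score and 662 bp when 50% overlap was required.

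**Figure D2:**
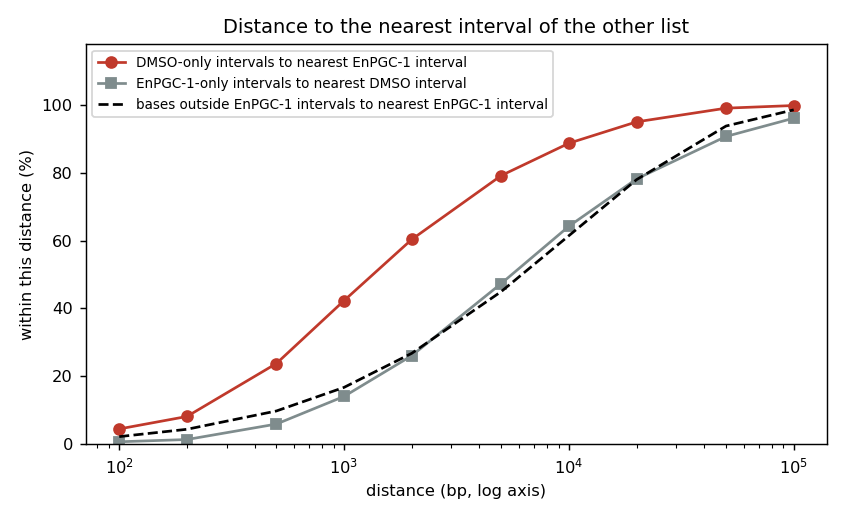
Cumulative percent (vertical axis) against distance in bp on a log axis: DMSO-only intervals to the nearest EnPGC-1 interval, EnPGC-1-only intervals to the nearest DMSO interval, and all bases outside EnPGC-1 intervals to the nearest EnPGC-1 interval. The DMSO-only curve is above the others at every distance plotted, with 42.3% within 1 kb against 14.1% of EnPGC-1-only intervals and 16.7% of bases.

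Close to the limit of the rule, 12 members touched an EnPGC-1 interval without sharing a base and 10 more were 1 bp away, while 13 DMSO intervals were counted as shared on 1 bp of overlap. Within 10 bp the counts on the inside and the outside of the rule were 131 and 142. Most shared intervals were far from this edge: the EnPGC-1 list covered a median 93.6% of their bases, and all bases of 41.0%. The length of the lists also sets the count. When the EnPGC-1 list was limited to its best-scoring intervals, as many as the DMSO list holds, the share without overlap was 68.4%, and when EnPGC-1 intervals were extended by 1000 bp on each side it was 15.1%.

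The EnPGC-1 list leaves 247415 stretches free between its intervals, and 7.78% of them (19255) held a DMSO-only interval. Stretches of 1 to 2 kb held 32.8 per Mb and those of 2 to 5 kb 32.1 per Mb. Density was lower in wider stretches, with 11.0 per Mb at 10 to 20 kb and 1.74 per Mb in stretches over 100 kb. The median free stretch with a member was 6892 bp long, against 2444 bp for all. In 1553 stretches there were 2 or more members, in 139 there were 3 or more, and the most was 5.

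DMSO-only intervals lay within 1 kb of an end of a protein-coding gene in 9.19% of cases (8.81 to 9.59), inside a gene in 50.1% and outside genes in 40.7%. In the same order the values were 13.9%, 54.4% and 31.6% for shared DMSO intervals, 8.63%, 48.4% and 43.0% for EnPGC-1-only intervals, and 3.10%, 39.2% and 57.7% for the bases of the chromosomes. On each of these 3 measures the DMSO-only set was nearer to the EnPGC-1-only set than to the shared set. Of the 8871 members within 1 kb of an EnPGC-1 interval, 11.97% were at a gene end and 56.5% inside a gene. The 9727 members at 1 to 10 kb had 7.65% and 47.9%. The 2362 members more than 10 kb away had 5.12% and 35.1%, so that 59.7% of these isolated intervals lay outside genes. Among DMSO-only intervals outside protein-coding genes, 17.0% overlapped a long noncoding RNA gene, beside 19.3% of the shared and 17.3% of the EnPGC-1-only ones.

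Transcription starts could be placed where the RefSeq promoter table gives a strand, which leaves out chromosome 18. A start lay within 1 kb of 6.89% of the DMSO-only intervals (1402 of 20341), of 10.9% of the shared DMSO intervals and of 6.82% of the EnPGC-1-only intervals. Interval centres were within 250 bp of a start in 2.70%, 4.01% and 2.38% of these sets in the same order. The sets differed in how they sat beside the start. Between 250 and 1000 bp after it lay 405 DMSO-only centres and in the same stretch before it 310, a ratio of 1.306. The ratio was 2.02 for shared DMSO intervals (2139 after and 1059 before) and 1.84 for EnPGC-1-only intervals (4126 and 2246). The profile rests on the same intervals as the selection and is given as a description.

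**Figure D3:**
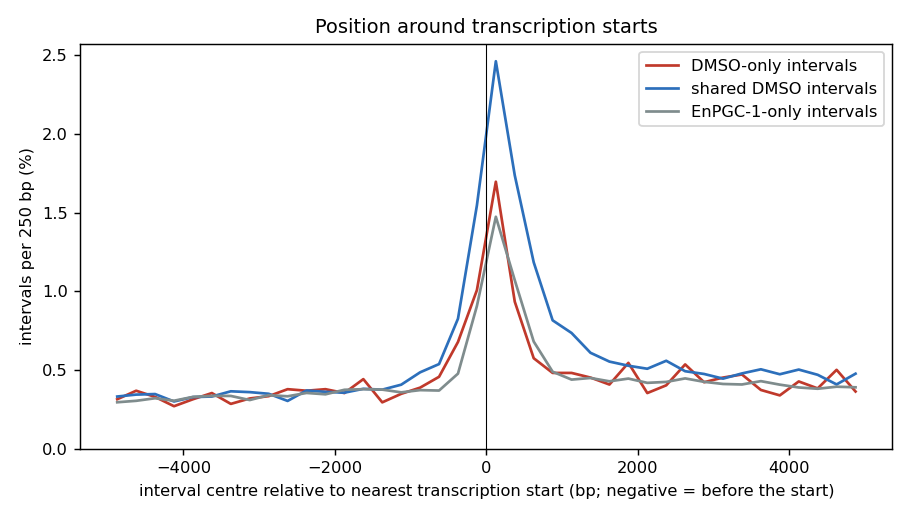
Percent of intervals whose centre falls in each 250 bp step (vertical axis) by distance from the nearest transcription start in bp, with negative values before the start. All 3 sets peak just after the start. The DMSO-only line is below the shared line there, with 2.70% against 4.01% within 250 bp, and close to the EnPGC-1-only line.

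The DMSO-only share differed between chromosomes, from 21.6% on chromosome 4 (20.6 to 22.6) to 33.4% on chromosome 3 (31.7 to 35.2). Chromosomes with more EnPGC-1 coverage had lower shares: 3.56% of chromosome 3 and 8.72% of chromosome 4 lay in EnPGC-1 intervals, and over the 19 chromosomes Spearman's rank correlation was -0.87. This is a description of 19 points from the same pair of lists. Its direction is tied to the selection, because more EnPGC-1 coverage leaves less room for a DMSO interval without overlap. In 1 Mb steps ordered by EnPGC-1 coverage, the share was 37.3% in the 481 steps with the lowest coverage and 21.4% in the 481 with the highest. In the groups of steps between, by rising coverage, it was 33.2%, 35.4% and 31.9%, so it did not go down evenly. By number the members were where coverage was high: 10085 of them lay in those 481 highest steps, and the step with the most (43), chr11:118000001-119000000, holds Rbfox3, Timp2 and Cyth1. That step also held 164 shared intervals, so 20.8% of its DMSO intervals were DMSO-only, beside 26.3% on the 19 chromosomes together.

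At the level of genes, 9486 of 20661 protein-coding genes (45.9%) had a DMSO-only interval in the gene or within 10 kb of it, and 1940 (9.39%) had 3 or more, here called several. There were 72 genes with 10 or more. Long genes dominated: the median length was 88.1 kb for genes with several members and 17.5 kb for all, and the share of genes with a member was 28.2% below 10 kb of length and 80.3% at 300 kb or more. Per 100 kb of gene window there were 1.52 members for genes below 10 kb, 1.82 at 10 to 30 kb and 0.628 at 300 kb or more. Pooled over gene windows, 23.1% of DMSO intervals were DMSO-only. An interval in the windows of several genes counts for each of them, here and in the list shares below.

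Camta1, a calmodulin-binding transcription activator gene of 802 kb on chromosome 4, had the most, with 31 DMSO-only intervals beside 103 shared ones and 335 EnPGC-1 intervals. Wwox (a WW domain oxidoreductase) followed with 21 of 64 DMSO intervals, Msi2 (an RNA-binding protein of blood stem cells) with 20 of 47, and Nav2 with 19 of 89. Asic2 and Rbfox3 had 18 each, of 47 and 94 DMSO intervals. Kalrn, a guanine nucleotide exchange factor gene, had the highest share of these 12 genes, with 17 of 30 intervals DMSO-only (56.7%), and Rnf220, a ubiquitin ligase gene, came next with 15 of 29 (51.7%). Camta1 at 23.1% was at the pooled share. Sdk1 (17), Cdh13 (16), Prkce (16) and Dlgap2 (15) completed the 12. All of them also had between 73 and 335 EnPGC-1 intervals. The order holds for this rule of overlap. With EnPGC-1 intervals extended by 1000 bp, Camta1 had 8, Wwox and Asic2 12 each and Rbfox3 0, and with intervals of 500 bp or more Rbfox3 had 15 and Camta1 12.

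Genes whose every listed DMSO interval was DMSO-only were few. Among 9583 genes with 3 or more DMSO intervals there were 77 (0.804%). Pard3, a cell polarity scaffold gene, had 8 of 8, although the EnPGC-1 list put 34 intervals at other positions of the same window. Lypd6b had 6 of 6 and Pld1, a phospholipase D gene, 5 of 5. Snrnp200 (a spliceosomal helicase), Actb (cytoplasmic actin), Zfp809 (a zinc finger repressor of retroviral elements in mouse), Tg (thyroglobulin) and Sting1 (the adaptor of cytosolic DNA sensing) had 4 of 4, with 6, 8, 3, 9 and 5 EnPGC-1 intervals in the order named. In none of these 8 genes was the EnPGC-1 list empty. At Actb, whose 4 members had widths of 370, 407, 873 and 371 bp, the distances to an EnPGC-1 interval were 411, 336, 780 and 1118 bp, so the lists alternated along the locus. The member of 370 bp lay in the flank of Actb and inside another protein-coding gene. At Zfp809 the 4 members were 10049 to 25894 bp from the nearest EnPGC-1 interval, inside a free stretch of 53.4 kb.

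By density, among genes with 4 or more members, the neuropeptide gene Gal led with 20.3 per 100 kb (5 DMSO-only and 2 shared intervals). C130074G19Rik had 6 DMSO-only and 3 shared intervals, and 3110082J24Rik 4 and 1. The creatine kinase gene Ckb had 4 and 3, Barx1 4 and 3, the potassium channel gene Kcnj11 4 and 7, and Icmt 5 and 10. These genes were short, between 2.503 and 11.1 kb, and their windows consisted mostly of the flanks.

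Runs of neighbouring members, with no EnPGC-1 interval between them and gaps of at most 50 kb, were short. Of them 126 had 3 members, 8 had 4 and 1 had 5. The run of 5 lay in Ikzf3, which encodes the lymphoid transcription factor Aiolos, at chr11:98493216-98532919. The EnPGC-1 list was empty there over 53.1 kb, from 964 bp before the run to 12481 bp after it. Runs of 4 crossed Zfp809, Scnn1g (an epithelial sodium channel subunit), Tacr1 (a tachykinin receptor), Sorbs2 and the pair Tbc1d9b and Mrnip, and the other 3 lay outside protein-coding genes.

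Seen in T cell genes, the intervals were mixed with EnPGC-1 ones. Of 37 genes of T cell identity and receptor signalling, 26 (70.3%, 53.0 to 84.1) had a DMSO-only interval, beside 45.9% of all protein-coding genes and 58.0% of genes of 30 to 100 kb, and all 37 had an EnPGC-1 interval. The median length of these 37 genes was 50.1 kb. The share of DMSO intervals without overlap was 22.8% (68 of 298), beside 23.1% for all genes. Nfatc1, the calcium-regulated factor of activated T cells, had 10 DMSO-only intervals, 18 shared ones and 49 EnPGC-1 intervals. Runx1 had 6 DMSO-only intervals of 29, Fyn 4 of 15, Lef1 4 of 15, Ikzf1 4 of 7 and Ets1 4 of 9. In Ikzf3 the members were 6 of 11, and all 6 lay inside the gene. Bcl11b, the T lineage commitment factor, had 1 of 21.

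Among 54 activation and cytokine receptor genes, 27 had a member (36.1 to 63.9%, an interval that holds the 45.9% of all genes) and 8 had several. Of their DMSO intervals 25.4% were DMSO-only, beside 23.1% over all genes. Dusp5, a nuclear phosphatase for ERK induced by stimulation, had 5 of 6 DMSO intervals without overlap. They lay 57, 463, 305, 1290 and 821 bp from an EnPGC-1 interval, of which the window held 8, so none of the 5 was isolated. Batf3, an AP-1 family factor, had 5 of 8, at distances of 121 to 3227 bp. Il2rb, Il4ra, Nfkb1 and Nfkb2 had 4 each, of 12, 10, 9 and 13 DMSO intervals. At Cd44 and Il12rb2 the promoter interval was the only DMSO interval of the window.

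**Figure D4:**
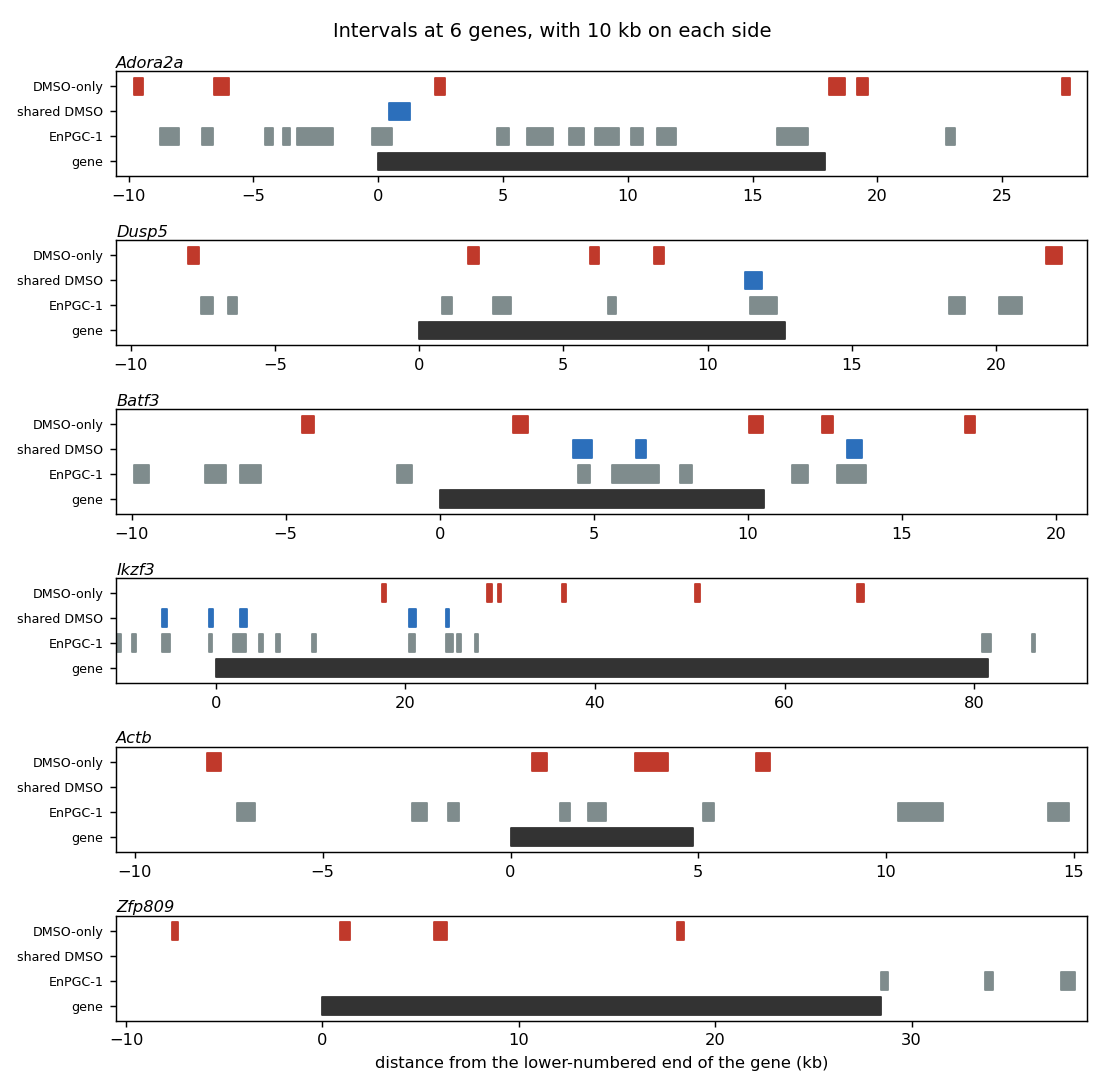
Intervals at 6 genes of the text, drawn to scale by distance in kb from the lower-numbered end of the gene (dark bar): DMSO-only, shared DMSO and EnPGC-1 intervals, top to bottom. DMSO-only intervals alternate with EnPGC-1 intervals at Adora2a, Dusp5, Batf3 and Actb, and form stretches without EnPGC-1 intervals in Ikzf3 and Zfp809.

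Of the effector genes, 11 of 27 (40.7%, 22.4 to 61.2) had a member and none had several. Their median length was 7.95 kb, and of all genes below 10 kb 28.2% had a member and 1.43% several. The interval of the list holds the 45.9% of all genes. Prf1, which encodes the pore protein perforin, had 2 DMSO-only and 2 shared intervals, and Id2 had 2 and 3. Tbx21 and Eomes, the T-box factors of effector cells, had 1 of 3 each. Memory and naive genes had a member in 10 of 22 (45.5%), with 28.4% of their DMSO intervals DMSO-only, and Bach2 (8 of 22), Foxp1 (5 of 20), Foxo3 (4 of 12) and Itgae (4 of 12) led. Of the 27 exhaustion and inhibitory receptor genes 9 had a member (33.3%, 16.5 to 54.0), and 20.2% of their DMSO intervals were DMSO-only, beside 45.9% and 23.1% over all genes. Adora2a, the adenosine receptor that dampens T cell responses, had 6 of 7, of which 1 was inside the gene and 5 in its flanks, 25 to 4268 bp from an EnPGC-1 interval. The flank intervals at chr10:75307077-75307466 and chr10:75310279-75310892 lay inside another protein-coding gene. Tox2 had 5 of 23 and Entpd1, the ectonucleotidase CD39, 3 of 5.

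The metabolic lists had members at 46.6% to 77.8% of their genes, beside 45.9% of all protein-coding genes, and 18.4% to 29.5% of their DMSO intervals were DMSO-only, beside 23.1%. Gene length differed between these lists. Of all genes, 28.2% had a member below 10 kb of length, 46.2% at 10 to 30 kb and 58.0% at 30 to 100 kb. The PGC-1 network, with a median length of 60.7 kb, had 28 of 42 genes with a member (66.7%, 50.5 to 80.4). Of its DMSO intervals 23.6% were DMSO-only. The coactivator genes themselves had 5 of 9 (Ppargc1a) and 4 of 17 (Ppargc1b), beside 27 and 47 EnPGC-1 intervals. Esrrg, an estrogen-related receptor gene, had 9 of 17, Ppard 6 of 22 and Ncoa3 6 of 12. Oxidative phosphorylation, with a median length of 7.28 kb, had 34 of 73 genes (46.6%, 34.8 to 58.6) and 47 of 186 intervals. The complex I subunit genes Ndufs8 (3 of 10) and Ndufa13 (3 of 11) led. Fatty acid oxidation had 20 of 35 and a DMSO-only share of 18.4%, with Hadha, of the mitochondrial trifunctional protein, at 3 of 7. Mitochondrial dynamics and quality control, with a median length of 18.7 kb, had 21 of 35 (42.1 to 76.1%) and a DMSO-only share of 29.5%. The cristae gene Chchd3 had 4 of 4. Glycolysis, with a median length of 19.8 kb, had 21 of 27 (77.8%, 57.7 to 91.4) and a share of 21.4%. The hexokinase genes Hk1 and Hk2 had 8 of 24 and 4 of 11. No list was tested against all genes.

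Of 34 genes that write, erase or read histone acetylation, 24 had a member (70.6%, 52.5 to 84.9), beside 45.9% of all genes. The median length of this list was 38.2 kb. Of all genes of 30 to 100 kb 58.0% had a member, a value that the interval of the list holds. The DMSO-only share of its DMSO intervals was 20.7%, beside 23.1%. The deacetylase gene Hdac4 had 9 of 25 and the bromodomain gene Baz2b 4 of 4. Over all 17 lists, 277 of 515 genes (53.8%, 49.4 to 58.2) had a member, against 45.9% of all protein-coding genes. Their median length was 20.4 kb, against 17.5 kb for all. By share of DMSO intervals they were closer, with 23.2% DMSO-only against 23.1% over all genes.

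Lists of other cell types also had members. The B cell list had a member at 8 of 15 genes, with Cd79b at 3 of 4 and Pax5 at 8 of 38, the myeloid list at 8 of 20, CD4, Treg and NK genes at 7 of 12, liver genes at 9 of 20, neuronal genes at 8 of 18 and muscle genes at 10 of 22. Their DMSO-only shares of DMSO intervals were 34.4% for CD4, Treg and NK genes (11 of 32) and 34.1% for liver genes (15 of 44), the highest of the 17 lists, and 23.8% for B cell, 20.3% for neuronal, 19.6% for myeloid and 18.2% for muscle genes. These shares count an interval at each list gene whose window holds it, and windows such as those of Il4 and Il13 overlap. The order of the lists rests on such counts. No difference between lists was tested. At the gene ends of defining markers, the CD8 T cell list had an EnPGC-1 interval at 8 of 9 genes and a DMSO interval at 5 of 9, with DMSO-only intervals at Zap70, Cd5 and Cd3e. B cell markers had them at 4 of 5 and 2 of 5, with DMSO-only intervals at Cd79a and Cd79b. Myeloid markers had them at 4 of 5 and 3 of 5, liver markers at 3 of 4 and 1 of 4, the DMSO interval at Apoa1 being DMSO-only, and neuronal and muscle markers at 4 of 4 and 1 of 4 each. Of the 4 matched markers of CD4, Treg and NK cells, an EnPGC-1 interval was at 1 and a DMSO interval at 2, Zbtb7b and Cd4, both with a DMSO-only interval. The mark at an end of a gene does not show which cells carried it, and the part of other cells in the DMSO-only set was not tested.

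A few genes had a DMSO-only interval and no EnPGC-1 interval at all. Of 1879 protein-coding genes without an EnPGC-1 interval in the gene or within 10 kb, 133 (7.08%) had a member, 15 of them 2 members and none more. Among them were 4 of the 14 list genes without an EnPGC-1 interval (28.6%), named after their values were seen. They were the deacetylase gene Sirt1 and the respiratory chain genes Ndufa4, Ndufs5 and Cox7c, each with 1. The median length was 10.1 kb for the 14 list genes and 3.06 kb for the 1879. Genes with 2 included Dek, Cdc73, Emc2, Gemin2 and H2-Aa, an MHC class II gene, likewise named after their values were seen. Btnl6, Lce3f and the predicted genes Gm3238 and Gm7138 also had 2. The genes with 1 included olfactory, vomeronasal and taste receptor genes. The share of such genes among the 1879 is not given, so no excess among the members can be read from this.

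Promoters gave a property that the overlap rule did not use, the sequence. Of 31396 promoter windows of 300 bases, 831 (2.65%) held a DMSO-only interval and no EnPGC-1 interval, 3436 (10.9%) held both a DMSO and an EnPGC-1 interval, 9483 (30.2%) an EnPGC-1 interval alone and 17152 neither. In a further 494 windows the DMSO interval was a shared one whose overlap lay outside the window. The 831 windows belonged to 764 genes, 583 of them protein-coding, and made up 17.5% of the 4761 windows with a DMSO interval. The nearest EnPGC-1 interval was a median 1410 bp from these promoter intervals, within 1 kb in 43.6% and over 10 kb in 9.27% (77 windows). An EnPGC-1 interval lay within 2 kb on the gene's side in 45.2% and on the side before the start in 33.6%.

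DMSO-only promoter windows were rich in CpG. Their median was 19 CpG per window (quartiles 8 and 27), against 16 in windows with both intervals, 14 in windows with an EnPGC-1 interval alone, 18 in the 494 windows with a shared DMSO interval and no EnPGC-1 base, 4 in windows with neither and 7 in all windows. At least 10 CpG were present in 70.3% of them (67.0 to 73.4), in 69.6% of windows with both, in 60.9% with EnPGC-1 alone and in 74.3% (70.2 to 78.1) of those 494 windows. CpG content at this level was thus shared with other windows that the DMSO list marks. Windows of 1 gene can overlap and hold the same interval, as the 3 windows of Mfn2 do. The exact intervals for window shares, here and for the words below, count such windows as separate and are therefore too narrow. The DMSO-only share of windows with a DMSO interval was lowest at 10 to 14 CpG, 12.1% (9.68 to 14.9), and highest at 30 CpG or more, 23.7% (20.6 to 27.05), while below 3 CpG it was 20.2% (15.1 to 26.1). Any EnPGC-1 interval was listed in 64.9% of windows with 15 to 19 CpG and in 49.1% of those with 30 or more, and any DMSO interval in 27.7% and 18.4%.

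**Figure D5:**
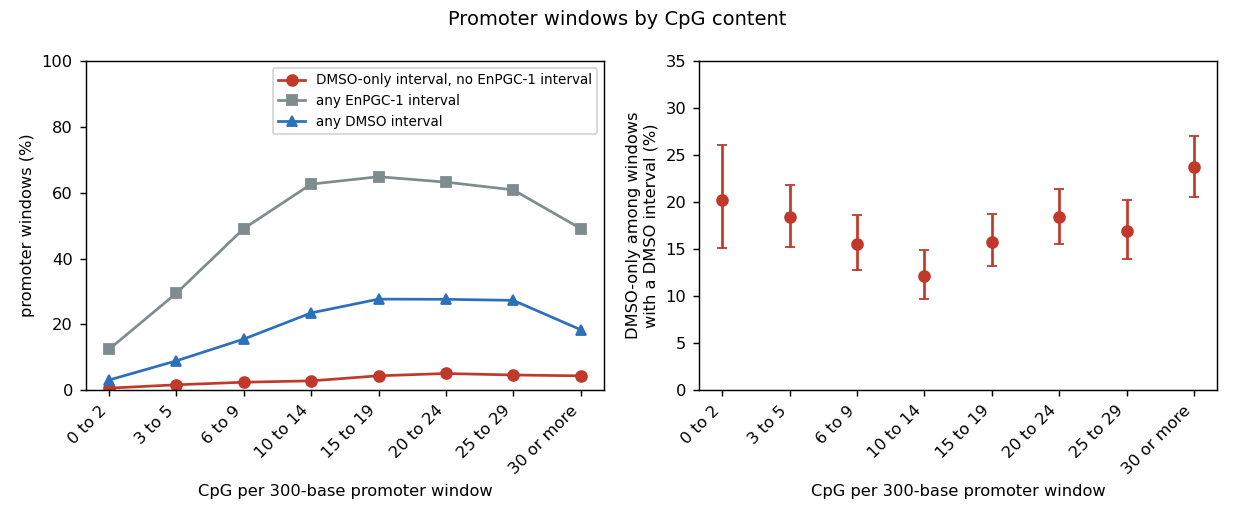
Promoter windows by number of CpG: percent with a DMSO-only interval and no EnPGC-1 interval, with any EnPGC-1 interval and with any DMSO interval (left), and the DMSO-only percent of windows with a DMSO interval with exact 95% intervals (right). The share at right is lowest at 10 to 14 CpG, 12.1%, and highest at 30 or more, 23.7%.

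Short promoter words were searched on both strands. The GC box GGGCGG was in 51.9% of DMSO-only windows (48.4 to 55.3), 52.8% of windows with both and 36.0% of all windows, and in 48.9% of windows with an EnPGC-1 interval alone and 61.1% of the 494. The CCAAT box was in 42.6% (39.2 to 46.0), 37.3% and 37.3% in the same order, and the ETS core CCGGAAG in 15.2%, 13.0% and 9.004%, and in 12.2% of windows with EnPGC-1 alone and 19.4% of the 494. The E-box CACGTG was in 10.6%, 8.09% and 7.14%, and the TATA box TATAAA in 6.14%, 6.49% and 13.6%. Words of several factors can overlap each other and CpG, and a match is a description of letters only.

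Of 16456 protein-coding genes with a promoter window, 3.54% had a DMSO-only one, and over genes of every type 2.97%. Among the 409 list genes with a window there were 22 (5.38%). They were 6 of 61 oxidative phosphorylation genes (Atp5d, Cox7c, Cycs, Ndufa4, Ndufa11 and Ndufs8), 4 of 29 genes of mitochondrial dynamics and quality control (Dnm1l, Mfn2, Tomm22 and Tomm40) and 3 of 25 glycolysis genes (Eno1, Hk1 and Pfkp). The activation genes Cd44 and Il12rb2 (2 of 43), 1 identity gene of 28 (Cd3e), Cpt1a, Ncoa1, Hdac4, Kat2b, Myh2 and Bank1 completed the 22. Among windows of the effector, memory, exhaustion, myeloid, CD4, Treg and NK, liver and neuronal lists there was none (0 of 20, 16, 20, 14, 8, 14 and 13 genes). The lists are small and the groups were not tested against each other. Oxidative phosphorylation promoters were marked in the EnPGC-1 list at 36 of 61 genes and in the DMSO list at 20 of 61, the 6 DMSO-only genes included in the 20.

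At the mitochondrial promoters the surroundings varied. The interval at Cox7c, a cytochrome c oxidase subunit gene, was 597 bp wide and 65044 bp from the nearest EnPGC-1 interval. The interval at Ndufa4 had a score of 4.24, above the upper quartile of 3.03 of all members. At Dnm1l, the fission GTPase gene, the distance was 7596 bp and at Tomm22, of the import pore, 2847 bp. By contrast the intervals at Tomm40 and Hk1 were 105 and 186 bp from an EnPGC-1 interval, and those at Cpt1a, the carnitine palmitoyltransferase gene, and Ndufa11 were 405 and 445 bp away. At Cpt1a the promoter interval, 875 bp wide, had EnPGC-1 intervals 405 bp before it and 482 bp after it.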

How the data were processed

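The submitters' processing notes name MACS2 2.2.2.20160309, Bowtie 1.1.2, Trimmomatic 0.38, Picard 0.118 and ChIPseeker 11.16.1, and build mm10. Parameters, the control and pooling were not given in the sources used here. Depth is therefore unknown, and the length of a list can follow it. The authors deposited 1 interval list per treatment with a score, taken to be −log10 q because the lowest scores were 1.31 in both lists (−log10 of 0.05 is 1.30).

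Rows repeating an interval were combined, which turned 329623 EnPGC-1 rows into 253423 intervals and 84538 DMSO rows into 81522. Overlap, distance and counts were computed in Python 3.11.15 with numpy 2.4.6 and pandas 2.3.3, exact Clopper-Pearson intervals with scipy 1.17.1, and the interval functions were tested on simulated data. Genes, promoter windows (none of chromosome 18 was used here) and sequences came from RefSeq tables of GRCm38.p6, which shares mm10 coordinates. A gene end means within 1 kb, a gene window adds 10 kb on each side, and 16456 of 20661 protein-coding genes had a promoter window. No genome was used here, so the planned composition of intervals was replaced by that of promoter windows.

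The members and gene lists were chosen with earlier results of these data known. The text names the 12 genes with the most members, 8 with all DMSO intervals DMSO-only, the 8 densest with 4 or more, up to 2 per list and those at the 10 highest-scoring, 10 widest and 10 farthest members and at the longest runs. Other list genes were named after their values were seen, and some genes that the rule picks are not reported here. Of 537 list entries 17 were not matched. Coordinates are 1-based.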

Additional observations from a re-analysis of the deposited data

How the results depend on the processing

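The DMSO-only share, the median width and distance, the location shares, the count of genes with several members, the list genes with a member, the promoter CpG and the counts at named genes were recomputed with other lists and rules. Runs were recomputed with other rules only, and shares by width, score, CpG, chromosome or list, densities, motif shares and start profiles were not recomputed. With each list at or above its own median score, the DMSO-only share was 54.4%, the median width 414 bp, the median distance 2744.5 bp, the gene-end share 11.17%, the share inside genes 51.6%, the genes with several members 3042 and the list genes with a member 59.6%. With equal numbers of intervals these were 68.4%, 415 bp, 4294 bp, 11.3%, 51.9%, 6988 and 79.0%, and the median CpG of promoter windows was 17. With intervals of 500 bp or more in both lists they were 30.05%, 609 bp, 1934 bp, 13.3%, 51.8%, 600 and 32.2%. With EnPGC-1 intervals extended by 1000 bp they were 15.1%, 371 bp, 3286.5 bp, 7.16%, 45.4%, 679 and 31.7%. Requiring 50% overlap gave 36.2%, 409 bp, 662 bp, 10.8%, 51.7%, 3420 and 64.3%. Using the deposited rows without combining them gave a share of 25.6%. Including chromosome X left each of these values within counting error. The gene-end share was 6.57% at 500 bp and 16.0% at 2500 bp. Counting the gene span alone gave 1217 genes with several members and 36.5% of list genes, a minimum of 2 gave 4221 genes and a minimum of 5 gave 558. Runs of 3 or more numbered 1672 when EnPGC-1 intervals were allowed between neighbours within 25 kb. The other lists and rules change which intervals are members, and no further cause was tested.

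Of 61 named genes, the count was classed as moved at 53 with intervals of 500 bp or more and at 38 with extended EnPGC-1 intervals. It was so classed at 36 with equal numbers, 15 with the median scores and 7 with 50% overlap. The class is not a test against counting error. It takes in small changes, as at Prf1 (2 members, and 1 with intervals of 500 bp or more). It leaves out Camta1 with 50% overlap (31 members, and 45). Alternatives for the gene lists beyond the median score and the gene span, and those for promoter windows, were added after seeing the data. No paired analysis was possible because each treatment has 1 list and no result comes from a test. For the same reason no replicate could be left out. Depth per sample is unknown, and its part in the number and width of intervals in either list was not tested.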

Other observations

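Of 919 microRNA hairpins in the RefSeq table, 15 (1.63%) lay in a DMSO-only interval, 126 in a shared DMSO interval and 368 in an EnPGC-1 interval. Over all DMSO intervals, 20960 were DMSO-only and 58882 shared, so hairpins were fewer by proportion in DMSO-only than in shared intervals. Examples of the 15 are Mir22, Mir425, Mir218-1 and Mir449c. Chromosome X, which the selection leaves out, held 1680 DMSO intervals, of which 481 (28.6%, 26.5 to 30.9) met no EnPGC-1 interval, with a median width of 360 bp.

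The farthest members were single narrow intervals in wide stretches that the EnPGC-1 list leaves free. The most distant was 329 bp wide at chr17:60171916-60172244, 180.5 kb from an EnPGC-1 interval and 1158.55 kb from the nearest protein-coding gene, Nudt12. The neuroligin gene Nlgn1 held 2 of the 10 farthest, at 178.0 and 135.2 kb, and Astn2 and Lrrc4c, genes of neuronal adhesion proteins, held 1 each, at 129.3 and 119.6 kb. The median width of the 2362 members over 10 kb from an EnPGC-1 interval was 355 bp, against 394 bp for the 8871 within 1 kb, and the median score was 2.16 in both.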
